A study of Mus musculus with 3 samples.

Results

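The genes described here are 33 type I interferon-stimulated genes, taken by name from the 33696 genes of the deposited matrices and not by a threshold on any measured value. They were followed gene by gene in T cell-like subsets, NK cell-like, macrophage-like, monocyte-like, neutrophil-like, dendritic cell-like, B cell-like, ILC2-like and KP1 tumor cell-like cells of 3 single-cell RNA sequencing libraries. The libraries came from live CD45+ cells sorted from tumors of KP1, a mouse small cell lung cancer line with mutant Rb and p53, grown under the skin of wild-type B6129SF1/J F1 mice that were bought at 5 to 6 weeks of age. Each mouse received 500000 KP1 cells, 3 µg of cytokine per dose by intraperitoneal injection on alternate days between day 7 and day 19, and tumors were collected on day 19. The first library was given mono-IL-10, labelled Supermono-10, an engineered monomeric form of human IL-10. The second was given the IL-10/2-Trikine, in which mono-IL-10 is fused to a non-signaling IL-2 variant that recruits IL-2Rβ. The last was given the IL-10/2-Trikine together with an antibody against PD-1 (clone RMP1-14, 200 µg on days 7, 11, 15 and 19), and is called the combination. The protocol text can also be read as giving the antibody to every group, whereas only the combination carries it in its title and treatment label, which were followed here. Each group was 1 library, the number of mice behind a library is not stated, and no untreated library was analysed here.

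Type I interferons are secreted when nucleic acid sensors are engaged. They bind a receptor made of IFNAR1 and IFNAR2, which is present on nearly all nucleated cells, and the JAK1 and TYK2 kinases then activate transcription factors that bind interferon-stimulated response elements in the promoters of target genes. The products of these genes block viral RNA and protein synthesis, extend the sensing of nucleic acids, and restrain the response itself. In tumors, dendritic cells that respond to type I interferon are known for priming CD8+ T cells. Many of these genes are also induced by interferon-gamma, so their level does not name the interferon that acted.

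An interferon-stimulated response element is built around a pair of GAAA blocks separated by 2 bases. Promoter windows from 250 bases before to 50 bases after the annotated start (RefSeq, mouse GRCm38.p6) were at hand for 24 of the 33 members. The letters GAAANNGAAA, read on either strand and with overlapping matches allowed, were found in 12 of these 24 windows, or 50%. They were found in 1079 of the 27025 genes with such a window, or 3.99%. The following stretches, read 5′ to 3′ on the strand of the gene, show the windows of members whose values recur in the results, with the matched blocks and their mirror TTTCNNTTTC in capitals.
Isg15, chr4:156200863-156200908, minus strand: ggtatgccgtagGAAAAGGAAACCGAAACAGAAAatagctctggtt
Ifit1, chr19:34640773-34640825, plus strand: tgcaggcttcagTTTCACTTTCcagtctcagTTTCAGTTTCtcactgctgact
Ifit3, chr19:34583361-34583428, plus strand: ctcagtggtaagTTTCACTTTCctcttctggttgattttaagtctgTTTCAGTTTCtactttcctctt
Ifit3b, chr19:34607757-34607824, plus strand: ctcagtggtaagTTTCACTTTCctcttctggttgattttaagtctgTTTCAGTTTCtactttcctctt
Oas1a, chr5:120907526-120907557, minus strand: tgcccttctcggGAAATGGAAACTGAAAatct
Rsad2, chr12:26456551-26456584, minus strand: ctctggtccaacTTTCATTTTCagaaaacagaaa
Bst2, chr8:71537575-71537614, minus strand: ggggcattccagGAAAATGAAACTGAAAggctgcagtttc
The Ifit3 and Ifit3b stretches are identical, and the longest run that their 300-base windows share is 169 bases. These genes are near-identical copies, reads can be split between them, and their separate values are therefore uncertain. A match is a description of the letters in the window and does not establish a binding site, and the 12 members without a match in this window may hold one elsewhere.

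After removal of barcodes with fewer than 200 detected genes or more than 20% mitochondrial UMIs, 22235 mono-IL-10, 22707 IL-10/2-Trikine and 26967 combination barcodes were kept as cells, with medians of 4774, 5562 and 4273 UMIs. Total UMIs were between 158570946 and 197176873 per library, and 137 to 180 cell barcodes were shared by each pair of libraries. The labels describe the samples as T cells, but clusters of the 12 classes compared here were found, including tumor cells. Class names carry "-like" because they rest on marker genes. A further cluster of 31 cells with markers of mast cells or basophils was too small and entered no comparison. Doublets were called in 14.4%, 16.8% and 4.09% of cells, by a caller that set its own cut within each library. These shares therefore do not compare the libraries alone. Leaving out called doublets removed few cells of the combination library, so values without them are not cleaned equally in the 3 libraries. Clusters in which most cells were called doublets (7.07%, 5.87% and 4.64% of cells) and clusters that could not be named (7.91%, 0.82% and 5.09%) were kept out of the classes. Levels are given as CPM, relative to the summed UMIs of all cells of a class in a library, and a gene was compared only where the pair of libraries held at least 20 of its UMIs. With 1 library per group no test was possible, intervals are 95% intervals that cover counting error only, or for a list the spread among its members, and the differences have no replicate check. Both comparisons use the IL-10/2-Trikine library, so a value peculiar to it moves them in opposite directions.

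The summed level of the 33 members was highest in myeloid and plasmacytoid DC-like cells and lowest in tumor cells. Neutrophil-like cells held 3773 CPM in the mono-IL-10 library, 3127 CPM in the IL-10/2-Trikine library and 3819 CPM in the combination library. Monocyte-like cells held 3336, 2820 and 3677 CPM, and plasmacytoid DC-like cells 3415, 3417 and 3824 CPM. Thus, monocyte-like and neutrophil-like cells shared an order in which the IL-10/2-Trikine library was lowest, whereas plasmacytoid DC-like cells of the first 2 libraries were nearly level. In plasmacytoid DC-like cells, Bst2, which encodes tetherin and is a known surface marker of these cells, made up most of the sum at 2025, 2221 and 2054 CPM. Macrophage-like cells held 2388, 2226 and 2863 CPM, conventional DC-like cells 2399, 1608 and 2233 CPM, and mature DC-like cells 2207, 1917 and 2131 CPM. T cell-like cells held 1547, 928 and 1310 CPM, and KP1 tumor cell-like cells 608, 481 and 609 CPM. The IL-10/2-Trikine library was the lowest of the 3 in each of these classes other than plasmacytoid DC-like cells. Among cells not called doublets the IL-10/2-Trikine library was the highest in mature DC-like (2477, 3271 and 2131 CPM) and plasmacytoid DC-like cells (3924, 4982 and 3854 CPM). In tumor cell-like cells not called doublets (352, 372 and 543 CPM) it was not the lowest.

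**Figure D1:**
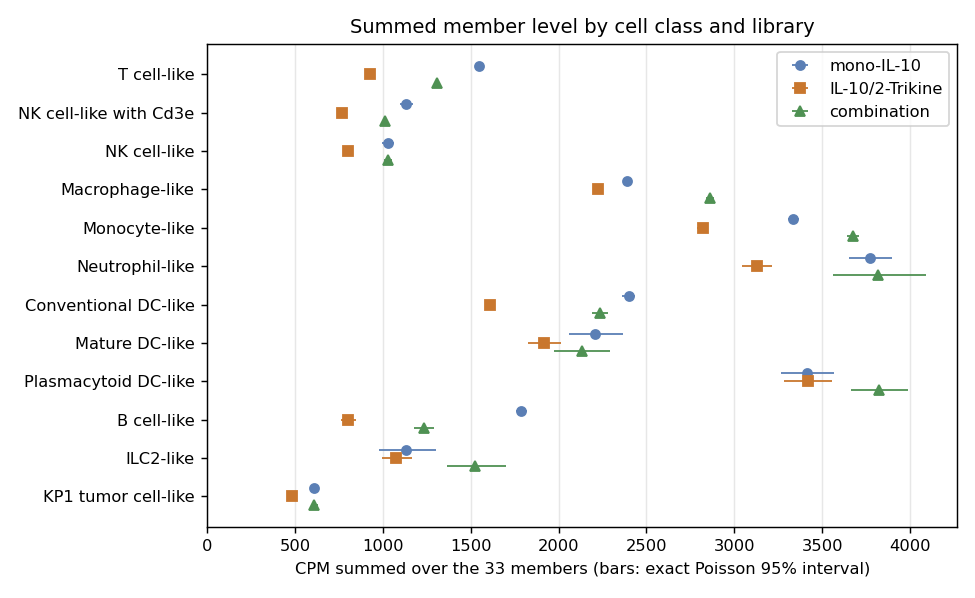
Summed level of the 33 members (horizontal axis, CPM of all UMIs of a class) in 12 cell classes, 1 point per library with its exact Poisson 95% interval. Neutrophil-like, plasmacytoid DC-like and monocyte-like cells lie highest and KP1 tumor cell-like cells lowest, between 481 and 609 CPM.

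In T cell-like cells (8124, 9608 and 11570 cells), all 33 members lay below the mono-IL-10 level in the IL-10/2-Trikine library, as did 63.2% of all genes compared, and 27 of them were lower by at least 1.5-fold. By the same measure 21.7% of the 15455 genes compared in T cell-like cells were lower. The median log2 ratio of the members was −0.89 (interval −1.63 to −0.75), against −0.18 for all genes compared. Scaled with edgeR TMM or median-of-ratios factors, which brought the median of all genes to −0.03 and 0.03, 31 and 30 members lay below 0, against 51.8% and 47.9% of all genes, with Bst2 and Cmpk2 above it in both and Ifih1 in the second. The ratio was not uniform among the roles of the members, and the 4 RNA-binding IFIT proteins, which grip foreign RNA and block its translation, had the lowest median at −2.44. Ifit3 stood at 25.02 CPM in the mono-IL-10 library, 3.76 CPM in the IL-10/2-Trikine library and 7.37 CPM in the combination library, with a log2 ratio of −2.74 (−2.92 to −2.55) in the first comparison. Its copy Ifit3b stood at 4.05, 0.65 and 1.26 CPM, a log2 ratio of −2.65 (−3.11 to −2.20). Ifit1 stood at 17.5, 3.70 and 10.5 CPM, a log2 ratio of −2.24 (−2.44 to −2.05). The mono-IL-10 library was the highest and the IL-10/2-Trikine library the lowest for each of these 3 genes. Ifit2 differed from its relatives in the combination library, where its 15.4 CPM lay near the 13.9 CPM of the IL-10/2-Trikine library rather than the 25.9 CPM of mono-IL-10.

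Among the restriction factors, Mx1, a dynamin-like GTPase that traps viral nucleoproteins, stood at 16.1, 3.38 and 5.41 CPM, a log2 ratio of −2.25 (−2.46 to −2.05) in the first comparison. Rsad2 (viperin), which makes a chain-terminating nucleotide, stood at 4.74, 1.12 and 2.64 CPM with a log2 ratio of −2.08 (−2.44 to −1.72). These 2 genes were past 1.5-fold along with Isg20, Trim30a and Samd9l, whose log2 ratios lay between −0.87 and −0.74, so that 5 of 7 restriction factors were lower by that measure. The other 2 did not move with them. Bst2 was level across the libraries at 99.1, 98.2 and 98.4 CPM, with log2 ratios of −0.01 (−0.07 to 0.04) and 0.00 (−0.04 to 0.05), although its promoter window holds 2 overlapping matches. Cmpk2, a mitochondrial nucleotide kinase, stood at 4.93, 4.76 and 4.11 CPM, and its log2 ratio of −0.05 (−0.29 to 0.19) has an interval that includes 0.

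The oligoadenylate synthetase family, counted with the RNA-activated kinase gene Eif2ak2, included 4 of 6 members past 1.5-fold. Oas1a, Oas2 and Oas3 belong to the synthetases known for an RNA-sensing pathway that ends in RNase L, whereas Oasl1 and Oasl2 encode related OAS-like proteins. Oas2 had a log2 ratio of −2.05, Oasl1 of −1.91, Oasl2 of −1.75 and Oas1a of −1.04. Oas3 at 6.93, 5.11 and 4.90 CPM stayed within 1.5-fold. Eif2ak2, which encodes PKR, was at 35.5, 30.7 and 34.6 CPM and had a log2 ratio of only −0.21 (−0.30 to −0.12). Within this family a small ratio was thus found both for Eif2ak2, the most deeply counted, and for Oas3 (−0.44), at a far lower CPM. Whether depth of counting bears on the size of the ratios was not tested.

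Isg15, the ubiquitin-like modifier, and the enzymes around it were lower by at least 1.5-fold in 6 of 6 cases. Isg15 was at 143 CPM in the mono-IL-10 library, 80.4 CPM in the IL-10/2-Trikine library and 186 CPM in the combination library, the highest of the 3. Its log2 ratio in the first comparison was −0.83 (−0.88 to −0.79). Usp18, which removes ISG15 from proteins and restrains signaling at IFNAR2, stood at 8.89, 2.55 and 4.94 CPM with a log2 ratio of −1.80 (−2.05 to −1.56). Parp9, Parp14, Dtx3l and Herc6 were closer together, with log2 ratios between −0.89 and −0.65. The transcription factors Irf7, which amplifies interferon production, and Stat2 had log2 ratios of −1.06 and −0.72.

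Among the sensors, Zbp1, which binds Z-form nucleic acid, and Dhx58 had log2 ratios of −0.85 and −1.15, whereas Ifih1, which encodes the long-RNA sensor MDA5, was at 41.7, 37.2 and 46.2 CPM with a log2 ratio of −0.16 (−0.25 to −0.08). Of the remaining 5 members, Ifi44 had the lowest ratio, at 1.27, 0.29 and 0.69 CPM and a log2 ratio of −2.12 (−2.87 to −1.41) that rests on 59, 24 and 53 UMIs. Rtp4 followed at −1.63, Xaf1 at −1.04 and Ifi27l2a at −0.63. Ifi35, at 52.2, 41.4 and 51.6 CPM, stayed within 1.5-fold with a log2 ratio of −0.34 (−0.41 to −0.26). Members with and without a promoter match had similar medians in this comparison, −0.85 and −0.89.

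**Figure D2:**
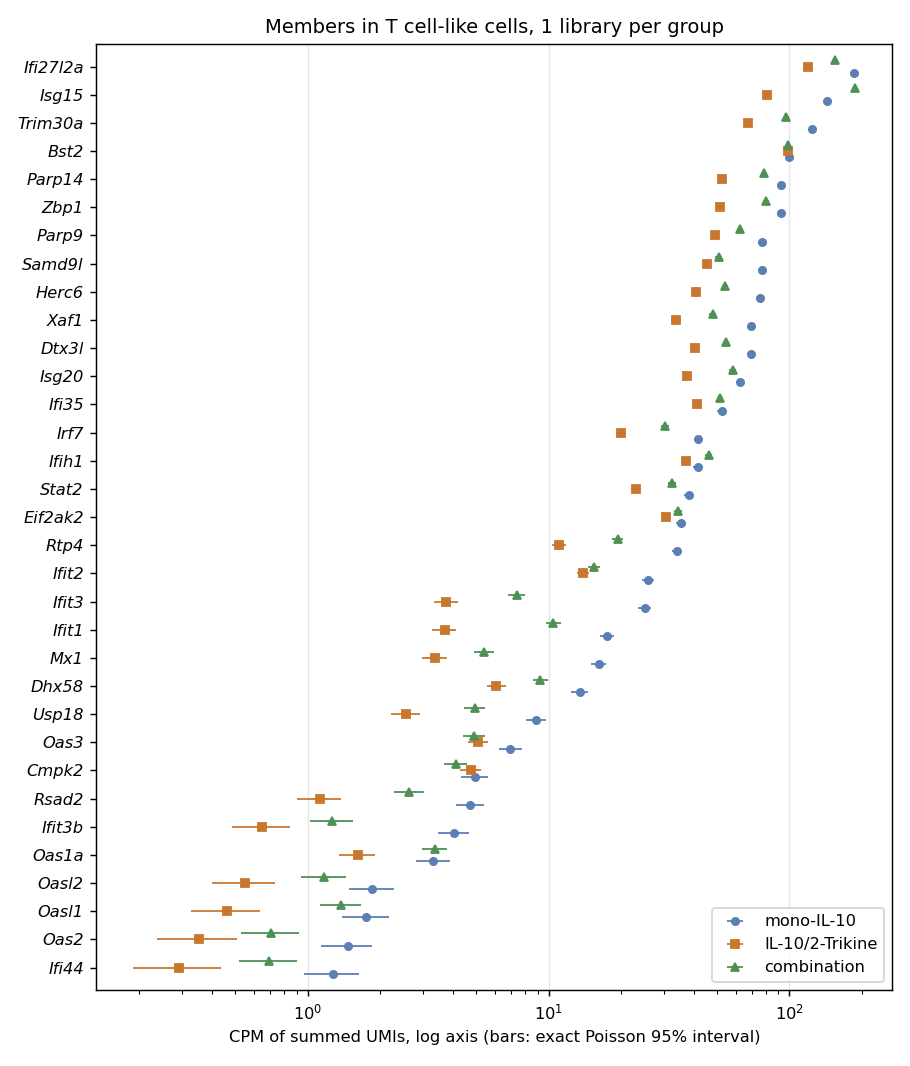
Level of each of the 33 members in T cell-like cells (horizontal axis, CPM on a log scale), ordered by the mono-IL-10 level, 1 point per library with its exact Poisson 95% interval. The IL-10/2-Trikine library is lowest for 31 of 33 members, the gaps are wide for Ifit1, Ifit3, Ifit3b and Mx1 and smaller for Ifit2, and the 3 Bst2 points coincide.

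In the combination library, 31 of the 33 members lay above the IL-10/2-Trikine level in T cell-like cells (56.9% of all genes did) and 17 were higher by at least 1.5-fold, a size reached by 8.87% of all genes compared. None was lower by that size, which 5.37% of all genes were. The median log2 ratio was 0.60 (0.40 to 0.95), against 0.06 for all genes. Oasl1, an inhibitor of Irf7 translation, stood highest, with 0.46 CPM in the IL-10/2-Trikine library and 1.38 CPM in the combination, a log2 ratio of 1.57 (1.02 to 2.15). Ifit1 followed at 1.503 (1.31 to 1.70), Ifi44 at 1.23 (0.51 to 1.99), Rsad2 at 1.23 (0.87 to 1.60) and Isg15 at 1.21 (1.17 to 1.25). Of these 5, Isg15 is by far the most deeply counted, with 6587 and 14325 UMIs. At the other end were Cmpk2 at −0.21 (−0.43 to 0.01), Oas3 at −0.06 (−0.27 to 0.14), Bst2, Ifit2 at 0.15 (0.03 to 0.27) and Samd9l at 0.16 (0.10 to 0.23). The levels of most members in the combination lay between those of the other libraries, and 3 members, Isg15, Ifih1 and Oas1a, lay above mono-IL-10.

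Several measures moved with these T cell values, and their part in them was not tested. First, T cell-like cells with at least 1 UMI of the proliferation gene Mki67 were 23.7%, 45.6% and 31.6% of all, or 10.9%, 23.2% and 14.9% after each cell was thinned to 1000 UMIs. The members' summed level in cells with an Mki67 UMI was 1214, 769 and 998 CPM, and in cells without one 1841, 1472 and 1797 CPM. Without the cells holding an Mki67 UMI the median log2 ratio was −0.43 with 14 of 33 members lower by 1.5-fold in the first comparison, against 14.9% of all genes in these cells, and 0.29 with 8 of 33 higher in the second, against 7.79%, and Ifi27l2a moved from −0.63 to 0.039. Thus, the direction of the median held among these cells at less than the size seen in all T cell-like cells. The other scalings gave first-comparison medians of −0.74 (TMM) and −0.68 (median of ratios). Such factors shift all genes of a class alike, so the distance of 0.71 from the median of all genes compared could not change with them. When cells were gated one by one on markers in place of clusters, 9 rather than 17 of the 33 members were higher in the second comparison, against 8.96% of all genes under this gate. Second, RNA outside cells moved in the same order. Barcodes with 1 to 100 UMIs held 9110516, 4654864 and 10147437 UMIs in total, in which the members stood at 1890, 1140 and 1652 CPM. Subtracting such RNA at 10% of each class left medians of −0.87 and 0.54. Besides these, 7 stress genes (Fos, Fosb, Jun, Junb, Hspa1a, Hspa1b and Dnajb1), which are known to be induced by handling of cells, summed to 1856, 1344 and 1728 CPM in T cell-like cells and to 1446, 854 and 1047 CPM in their CD8 T cell-like subset, both in the order of the members. Last, the 10 macrophage markers, all of them detected, summed to 81.4, 24.9 and 59.8 CPM in T cell-like cells, well under the 12209.6 CPM or more that the same list reached in macrophage-like cells not called doublets.

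For 6 members, Oasl1, Oasl2, Rsad2, Ifi44, Cmpk2 and Eif2ak2, the share of T cell-like cells with a UMI was at or below the share of KP1 tumor cell-like cells in every library after thinning to 1000 UMIs. For Oasl1 these shares were 0.26%, 0.08% and 0.20% in T cell-like cells and 1.52%, 0.88% and 1.25% in tumor cell-like cells. The T cell values of these 6 members are therefore read with caution, and the medians without them were −0.87 and 0.58. No class is known to lack these genes, and KP1 tumor cell-like cells, the class with the lowest summed level, were used for this comparison. Called doublets were 14.4%, 13.7% and 8.37% of those cells and held more member RNA than the rest. Thinning left out 42.6%, 20.6% and 25.6% of them. A share below theirs therefore does not establish background.

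The 7 T cell subsets were compared separately, since their shares of the T cell-like cells differed between libraries. Unnamed subclusters of 461 and 114 cells were counted among all T cell-like cells but not compared as subsets. CD8 T cell-like cells made up 50.6%, 34.7% and 40.4% of T cell-like cells, naive T cell-like cells 17.5%, 2.11% and 0.96%, and cycling T cell-like cells 9.79%, 20.5% and 10.5%. In CD8 T cell-like cells the members summed to 1781, 1259 and 1742 CPM, and 16 of the 32 that could be compared were lower by at least 1.5-fold in the first comparison, against 11.6% of all genes, with a median of −0.57. In the second comparison 10 were higher, against 8.85%, with a median of 0.47. Ifit3 stood at 39.98, 15.5 and 22.4 CPM there and Isg15 at 153, 92.4 and 200 CPM. In these cells the combination level of Isg15 was the highest and that of Ifit3 lay between the others. The extremes were thinly counted, with Oasl1 at −2.69 (−4.64 to −1.22) and Oas2 at −1.60 (−3.02 to −0.39) lowest in the first comparison, and Oasl1 at 2.34 (0.81 to 4.32) and Oasl2 at 1.64 (0.49 to 2.97) highest in the second. At the other ends were Cmpk2 at −0.01 (−0.52 to 0.48) and Samd9l at −0.10 (−0.21 to 0.01), and then Oas3 at −0.06 (−0.45 to 0.33) and Ifit2 at 0.04 (−0.19 to 0.26), none of them clear of 0. Oasl1, Oasl2, Rsad2 and Cmpk2 are among the members whose share of T cell-like cells did not exceed that of tumor cell-like cells. Their values here and in the other subsets are read with the same caution. The 6 subsets other than gamma-delta T cell-like cells, weighted equally, gave a median of −0.58 with 16 of 33 members lower, against 18.5% of all genes so weighted, and 0.44 with 11 higher, against 10.1%.

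CD4 T cell-like cells held 1686, 1082 and 1340 CPM, with medians of −0.66 (17 of 28 lower, against 12.6% of all genes) and 0.26 (6 of 31 higher, against 6.47%). Isg15 was at 259, 127 and 259 CPM, so that its combination and mono-IL-10 levels were equal. Ifit3, by contrast, was at 13.7, 3.14 and 3.26 CPM, so that the combination and IL-10/2-Trikine levels did not differ beyond counting error (0.05, −0.57 to 0.70). Ifit1 at −2.24 (−2.81 to −1.69) and Ifit3 at −2.12 (−2.77 to −1.50) were lowest in the first comparison, and Oas3 at 0.35 (−0.39 to 1.14) and Bst2 at 0.06 (−0.10 to 0.23) highest. In the second, Oasl1 at 1.70 (−0.07 to 4.11) and Oasl2 at 1.44 (−0.14 to 3.45) were highest and Cmpk2 at −0.60 (−1.36 to 0.18) and Oas3 at −0.44 (−0.93 to 0.07) lowest, each with an interval that includes 0. Regulatory T cell-like cells, which held 2125, 1724 and 1934 CPM, the highest sums other than the 2116 CPM of the few gamma-delta T cell-like cells of the combination, had medians of −0.41 (8 of 29 lower, against 10.4%) and 0.22 (8 of 32 higher, against 5.25%). Their lowest members in the first comparison were Mx1 at −2.17 (−2.83 to −1.54) and Rsad2 at −1.84 (−2.92 to −0.78), and their highest in the second Rsad2 at 1.80 (0.97 to 2.71) and Oas2 at 1.80 (0.36 to 3.55). Their highest in the first, Oas1a at 0.27 (−0.58 to 1.21) and Oasl2 at 0.17 (−1.21 to 1.78), and their lowest in the second, Oasl2 at −0.34 (−1.34 to 0.66) and Oas3 at −0.26 (−0.82 to 0.30), were not clear of 0. Stress genes summed to 2731, 1841 and 2228 CPM in CD4 T cell-like cells and to 2035, 1624 and 1768 CPM in regulatory T cell-like cells. Both ran in the order of the members, and their part was not tested.

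Naive T cell-like cells had 22 of 32 members lower in the first comparison, against 23.5%, but only 203 and 111 such cells came from the IL-10/2-Trikine and combination libraries. Their mono-IL-10 pool held 5742522 UMIs and their IL-10/2-Trikine pool 749813, so sparse members passed the minimum of 20 UMIs mainly through the first. Examples are Oas2 with 19 and 1 UMIs and Rsad2 with 33 and 1. Of the members counted as lower, Ifit3b, Oas2, Oas3, Oasl1, Rsad2, Ifi44, Dhx58 and Cmpk2 had intervals that include 0. Oas1a, with 20 UMIs against 0, was too thinly counted there for a fold. The median of the 33 members was −0.91 with Oas1a taken as the lowest and −0.83 with its 0 set to a floor of 3 UMIs. Of the 19 members that could be compared in the second, 9 of them were higher, against 9.99% of all genes, and the median was 0.38. Next to Oas1a the lowest was Ifit3 at −2.55 (−4.01 to −1.41), and Ifi35 at 0.13 (−0.38 to 0.61) and Bst2 at 0.05 (−0.28 to 0.37) were highest in the first comparison. In the second, Isg15 at 1.85 (1.17 to 2.55) and Ifih1 at 1.82 (0.71 to 2.98) were highest, and Ifi35 at −0.19 (−1.10 to 0.66) and Ifi27l2a at −0.14 (−0.58 to 0.27) lowest. Stress genes summed to 2920, 1062 and 1438.5 CPM in naive T cell-like cells, in the order of the members, and their part was not tested. Cycling T cell-like cells held 891, 645 and 858 CPM, with medians of −0.49 (11 of 28 lower and 2 higher, against 9.73% and 5.97%) and 0.39 (9 of 28 higher, against 6.74%). The 2 higher members were Cmpk2 at 1.21 (0.65 to 1.80) and Oas3 at 0.75 (0.17 to 1.37), and the lowest were Ifit1 at −2.36 (−3.22 to −1.56) and Ifit3 at −2.07 (−2.74 to −1.42). In the second comparison Oas1a at 1.89 (0.78 to 3.09) and Ifit1 at 1.76 (0.90 to 2.65) were highest, and Cmpk2 at −0.19 (−0.61 to 0.22) and Samd9l at −0.06 (−0.22 to 0.10) lowest. A subset led by the chemokine gene Xcl1, which could not be named from the markers, held 1041, 641 and 735 CPM, so that it and cycling T cell-like cells had the lowest sums of the subsets. It had a median of −0.99 (17 of 27 lower, against 24.8%) and then 0.16 with an interval of −0.04 to 0.37. The cells of this subset had medians of 7277, 18562 and 13767.5 UMIs and Mki67 at 420, 641 and 564 CPM, and the part of these was not tested. Ifit3 at −2.19 (−3.25 to −1.10) and Oas1a at −1.71 (−2.87 to −0.45) were lowest in its first comparison, and Bst2 at 0.22 (0.06 to 0.39) and Cmpk2 at 0.12 (−0.80 to 1.18) highest. In its second, Oasl1 at 3.46 (1.73 to 5.84) and Isg15 at 0.88 (0.78 to 0.99) were highest, and Cmpk2 at −1.12 (−1.83 to −0.45) and Mx1 at −0.72 (−1.88 to 0.35) lowest. Gamma-delta T cell-like cells, with 60, 50 and 43 cells, had medians of −0.21 and 0.27. Their first comparison ran from Stat2 at −1.49 (−3.09 to −0.13) and Dtx3l at −1.10 (−2.74 to 0.33) to Bst2 at 0.99 (0.06 to 1.95) and Irf7 at 2.32 (0.86 to 4.09). The second ran from Irf7 at −1.25 (−2.64 to −0.00091) and Ifi27l2a at −1.07 (−1.83 to −0.35) to Isg15 at 1.10 (0.40 to 1.84) and Herc6 at 1.37 (0.19 to 2.67). In all subsets other than gamma-delta T cell-like cells the mono-IL-10 sum lay above the IL-10/2-Trikine sum.

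**Figure D3:**
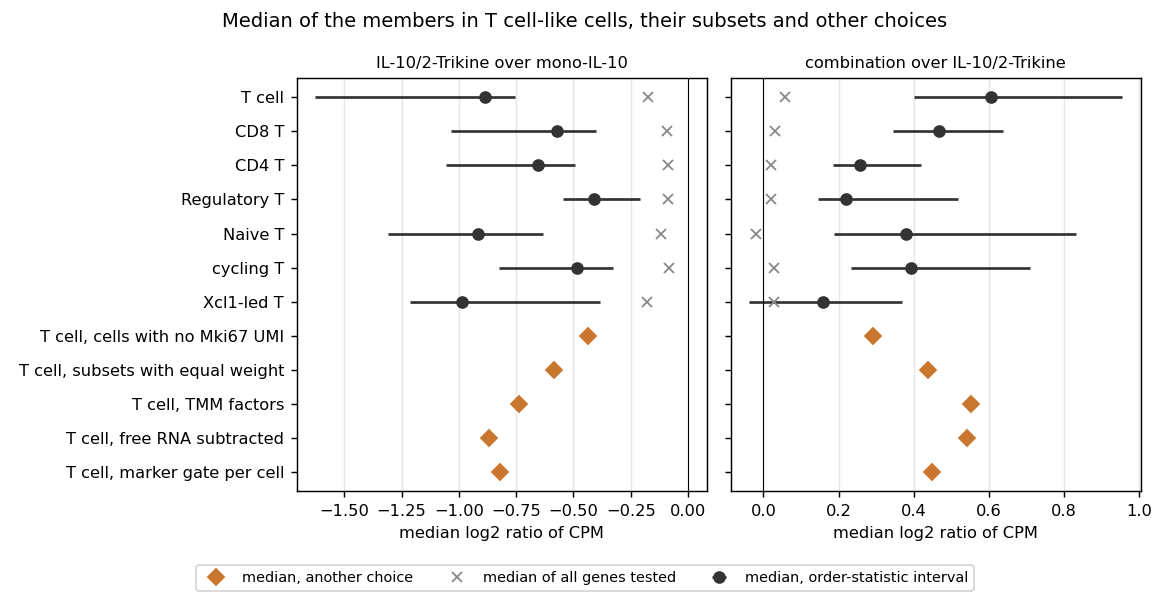
Median log2 ratio of the members (horizontal axes) in all T cell-like cells and 6 of their subsets, with its 95% order-statistic interval, for the first comparison on the left and the second on the right; crosses give the median of all genes compared, and diamonds the T cell-like median under other choices. Medians of the first comparison lie below 0 throughout, from −0.99 in the Xcl1-led subset to −0.41 in regulatory T cell-like cells, and those of the second lie above 0, with an interval that includes 0 in the Xcl1-led subset.

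Per cell, the members were sparse. In T cell-like cells thinned to 1000 UMIs, 27.7%, 38.1% and 30.4% of cells held no UMI of any member. Cells with at least 3 member UMIs were 23.7% (22.8 to 24.7), 13.7% (13.02 to 14.4) and 20.5% (19.8 to 21.3), and the mean was 1.80, 1.23 and 1.62 member UMIs per cell. Thinning left out 9.21%, 5.43% and 9.52% of T cell-like cells, whose UMIs were below 1000. Without thinning the shares with at least 3 member UMIs reached 75.8%, 75.4% and 75.0% in cells with medians of 3979, 4919.5 and 3997 UMIs. The tenth of cells with the most member UMIs held 37.5%, 38.3% and 37.8% of them, so the concentration of member UMIs in few cells was alike in the libraries. Cells with at least 3 member UMIs were 36.6%, 33.01% and 46.8% of macrophage-like and 49.2%, 43.7% and 53.3% of monocyte-like cells, where the combination was highest. In KP1 tumor cell-like cells they were 5.43%, 2.64% and 4.58%.

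**Figure D4:**
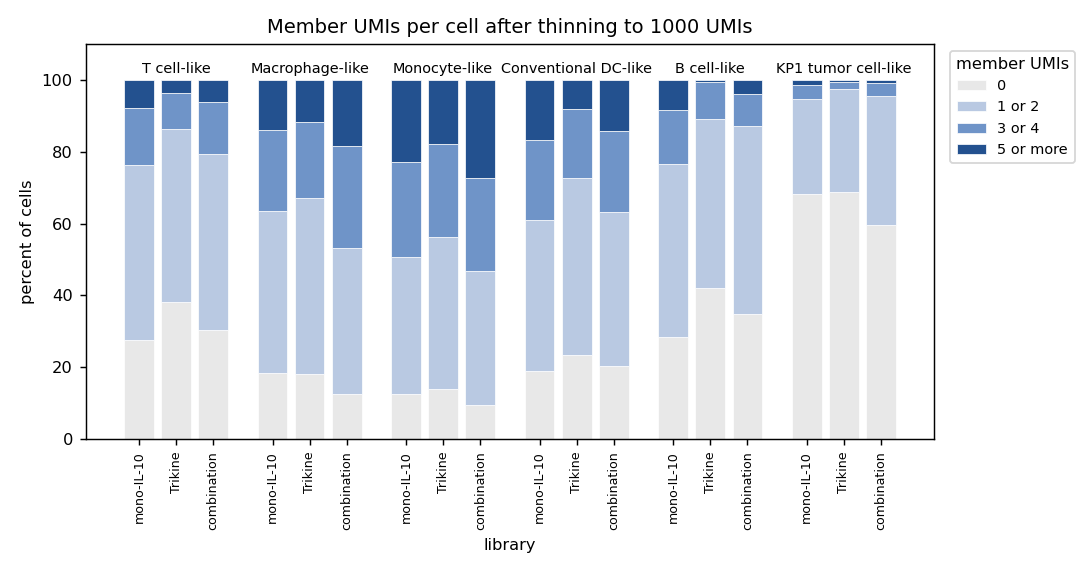
Cells of 6 classes by their number of member UMIs after thinning to 1000 UMIs per cell (stacked bars, percent of the cells of a class, 1 bar per library). T cell-like cells with no member UMI are 27.7%, 38.1% and 30.4%, and in macrophage-like and monocyte-like cells the darker shades of 3 or more UMIs are largest in the combination library.

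NK cell-like cells were split into a cluster in which most cells also held Cd3e, a T cell receptor complex gene, and a cluster in which they did not. Cd3e was found in 70.6% and the NK cell marker Ncr1 in 29.3% of cells of the first cluster, against 12.5% and 75.5% in the second. The first cluster may therefore hold many T cells that bear NK receptors, and it was not counted among the T cell-like subsets. NK cell-like cells with Cd3e (561, 3696 and 2233 cells) held 1134, 768 and 1009 CPM. The 10 macrophage markers summed to 70.6, 19.6 and 66.8 CPM in them and the stress genes to 2402, 930 and 1254 CPM, both in the order of the members, and their part was not tested. Of 31 members 30 lay below 0 in the first comparison, against 60% of all genes, and 21 were lower by at least 1.5-fold, against 21.2%, with a median of −0.66. In the second, 10 of 32 were higher, against 11.4%, with a median of 0.33. Without cells holding an Mki67 UMI the medians were −0.25 and 0.13, and with TMM or median-of-ratios factors 13 rather than 21 of the 31 members were lower in the first comparison, against 14.9% and 12.5% of all genes. Their lowest members were Ifit3, at 16.4, 3.21 and 3.90 CPM and a log2 ratio of −2.35 (−2.83 to −1.85), and Ifit1 at −2.22 (−2.78 to −1.63). Eif2ak2 at 0.09 (−0.22 to 0.42) and Bst2 at −0.05 (−0.23 to 0.14) were the highest. In the second comparison Ifit3b at 1.38 (0.23 to 2.54) and Oasl1, at 5.06, 1.45 and 3.67 CPM, at 1.34 (0.73 to 1.95) were highest. Oas3, at 5.96, 4.98 and 3.37 CPM, was lowest at −0.56 (−1.07 to −0.08), next to Cmpk2 at −0.25 (−0.75 to 0.24). In this class Ifit3 of the combination stayed near its IL-10/2-Trikine level, whereas Isg15, at 106, 60.6 and 131 CPM, did not.

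The other NK cell-like cells (775, 1331 and 1992 cells) held 1028, 801 and 1028 CPM, so the sums of the mono-IL-10 and combination libraries were equal. In the first comparison 8 of 28 members were lower and 1 higher, against 11.1% and 8.63% of all genes, with a median of −0.40. In the second, 8 were higher, against 6.34%, with a median of 0.38. Ifit3, at 10.2, 2.01 and 3.49 CPM, and Mx1, at 16.2, 5.19 and 11.0 CPM, were lowest in the first comparison at −2.34 (−3.42 to −1.35) and −1.64 (−2.32 to −0.97), and Rsad2 and Mx1 highest in the second at 1.16 (0.25 to 2.15) and 1.08 (0.47 to 1.73). Cmpk2, at 1.79, 3.18 and 2.15 CPM, was the member higher in the first comparison at 0.83 (−0.55 to 2.44), followed by Irf7 at 0.15 (−0.13 to 0.44). Cmpk2 at −0.57 (−1.62 to 0.47) and Dhx58 at −0.32 (−1.07 to 0.43) were lowest in the second, and the intervals of these 4 values include 0. The 10 macrophage markers summed to 82.9, 25.6 and 91.4 CPM in these cells, with Trem2 at 0 in all 3 libraries, and the stress genes to 3285, 1478 and 1568 CPM, and the part of either in the ratios was not tested.

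Macrophage-like cells (4332, 2058 and 4938 cells) differed less between mono-IL-10 and IL-10/2-Trikine. Of 33 members 23 lay below 0, against 43.2% of all genes, and 5 were lower by at least 1.5-fold, against 4.96%, with a median of −0.18. Under the alternatives this median ran from −0.25 to −0.08. Ifit3b was the lowest at 5.12, 1.85 and 4.11 CPM, a log2 ratio of −1.47 (−2.24 to −0.78), and Oas3 followed at −0.99 (−1.80 to −0.26). Ifit3 stood at 39.7, 24.0 and 38.7 CPM, a log2 ratio of −0.73 (−0.93 to −0.53), and Irf7 at 99.0, 63.5 and 97.5 CPM, a log2 ratio of −0.64 (−0.76 to −0.52). These genes stood at nearly the same level in the mono-IL-10 and combination libraries, with the IL-10/2-Trikine library below both. Isg15 did not follow them, at 262, 305 and 419 CPM. Isg20 and Cmpk2 had the highest ratios, 0.36 (−0.11 to 0.81) and 0.31 (−0.08 to 0.70), with intervals that include 0.

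In the second comparison 7 of the 33 members were higher in macrophage-like cells, against 4.41% of all genes, and the median was 0.34. Besides Ifit3b at 1.16 (0.43 to 1.95) and Oas3 at 0.84 (0.08 to 1.67), whose counts are small, Oasl1 was higher at 116, 130 and 212 CPM, a log2 ratio of 0.71 (0.62 to 0.80). Oasl2 had a log2 ratio of 0.64 (0.49 to 0.80) and Ifit1 of 0.61 (0.45 to 0.77). Isg20, at 4.48, 5.73 and 4.84 CPM, was lowest at −0.24 (−0.71 to 0.24), and Samd9l, at 51.3, 52.1 and 51.2 CPM, was level at −0.02 (−0.17 to 0.13). The combination library had the highest level of the 3 for 22 of the 33 members in macrophage-like cells and for 21 of 33 in monocyte-like cells. In T cell-like cells the mono-IL-10 library was highest for 30. These counts by library order have no share of all genes beside them, and the difference between classes was not tested. Macrophage-like cells also held T cell RNA, with the 10 T cell markers summing to 237, 597 and 322 CPM, and its part in the ratios was not tested.

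Monocyte-like cells (1746, 1764 and 1732 cells) are the class with the most even cell numbers. Of 32 members 30 lay below 0 in the first comparison, against 47.7% of all genes, and 6 were lower by at least 1.5-fold, against 5.35%, with a median of −0.37. Ifit3 was lowest at 21.7, 10.0 and 12.4 CPM, a log2 ratio of −1.11 (−1.44 to −0.79), and Ifit2 stood at 84.3, 45.0 and 71.1 CPM, a log2 ratio of −0.90 (−1.06 to −0.75). Eif2ak2, at 62.7, 76.5 and 103 CPM, was the highest and ran in the other direction, with log2 ratios of 0.29 (0.15 to 0.43) and 0.43 (0.30 to 0.56), followed by Parp9 at 0.09 (−0.02 to 0.21). There, 6 members were higher in the second comparison, against 4.92%, with a median of 0.38. They were led by Cmpk2 at 1.15 (0.70 to 1.61) and Oas3 at 0.82 (0.56 to 1.08), the pair that stood lowest in T cell-like cells in that comparison. Ifi27l2a, at 445, 424 and 373 CPM, was lowest at −0.19 (−0.25 to −0.13), next to Samd9l at −0.04 (−0.18 to 0.10). Isg15 stood at 497, 430 and 697 CPM in monocyte-like cells. Macrophage markers, all 10 detected, summed to 3030, 2305 and 3534 CPM there, the order of the members, the 10 T cell markers to 258, 398 and 250 CPM, and the stress genes to 4957, 3203 and 2785 CPM, and their part in the ratios was not tested. Without called doublets (6.13%, 7.37% and 2.31% of the cells) the medians were −0.35 and 0.39.

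Neutrophil-like cells (324, 644 and 112 cells, with 1319 to 2065 UMIs at the median) held the highest Isg15 level of all classes, at 839, 928 and 1083 CPM. In the first comparison 11 of 32 members were lower and 1 higher, against 24.9% and 16.7% of all genes, with a median of −0.33. Ifit3b at 45.0 and 7.25 CPM, Ifit3 at 119 and 29.0 CPM and Ifit1 at 84.8 and 26.0 CPM had log2 ratios of −2.63 (−3.69 to −1.69), −2.04 (−2.56 to −1.54) and −1.71. The member higher by 1.5-fold was Oas1a at 1.32 (0.01 to 2.89), on 6.28 and 15.7 CPM, and Ifi27l2a followed at 0.50 (0.20 to 0.80), on 137 and 194 CPM. Rsad2 was at 385, 209 and 311 CPM, well above its level in the other classes of these libraries. Between the combination and IL-10/2-Trikine, 8 of 30 members were higher and 3 lower, against 20.7% and 24.9%. The share higher was near the background and the share lower was under it, and both rest on 112 cells of the combination. Usp18 at 1.14 (−0.46 to 2.49) and Oasl2, at 89.0, 79.8 and 167 CPM, at 1.07 (0.49 to 1.61) were highest. Ifit2, at 84.8, 47.1 and 13.9 CPM, was lowest at −1.76 (−4.07 to −0.16), and Bst2, at 73.3, 74.3 and 37.2 CPM, followed with an interval of −2.24 to 0.02. In neutrophil-like cells the 10 macrophage markers summed to 2041, 1054 and 1519 CPM, the 10 T cell markers to 1037, 1707 and 1547 CPM and the 10 B cell markers to 1675, 115 and 251 CPM. Called doublets were 19.4%, 17.5% and 3.57% of them, without which the medians were −0.30 and 0.076, and the part of these in the ratios was not tested. This 0.076 was the lowest value of the second median under the alternatives, which reached up to 0.47.

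Conventional DC-like cells (414, 629 and 374 cells) had all 33 members below 0 in the first comparison, against 55.9% of all genes, and 18 lower by at least 1.5-fold, against 9.06%, with a median of −0.61. Ifit3 stood at 27.0, 6.11 and 7.51 CPM, a log2 ratio of −2.14 (−2.59 to −1.71), Ifit1 at 21.6, 5.61 and 13.4 CPM, a log2 ratio of −1.94 (−2.42 to −1.49), and Ifit2 at 69.9, 21.7 and 22.5 CPM, a log2 ratio of −1.68 (−1.93 to −1.45). The members with the smallest ratios were Eif2ak2 at −0.21 (−0.41 to −0.01) and Ifi35 at −0.27 (−0.45 to −0.10). Ifit2 and Ifit3 of the combination stayed near the IL-10/2-Trikine level, and Ifit1 lay between. In the second comparison 10 of 32 members were higher, against 5.92%, with a median of 0.48, led by Ifit1 at 1.25 (0.70 to 1.81) and Ifi44, at 70.7, 27.5 and 61.5 CPM, at 1.16 (0.91 to 1.41). Mx1 at −0.24 (−0.71 to 0.22) and Rsad2 at −0.21 (−0.89 to 0.43) were lowest. Called doublets made up 36.7%, 39.3% and 5.61% of these cells, and without them the medians were −0.36 and 0.15. Cells with an Mki67 UMI made up 37.4%, 48.6% and 27.0%. The members summed to 2101, 1409 and 1898.5 CPM in cells with an Mki67 UMI and to 2776, 2103 and 2479 CPM in the others. The part of this split was not tested. The 10 macrophage markers summed to 1487, 976 and 922 CPM in conventional DC-like cells and the stress genes to 3634, 2544 and 2791 CPM. The T cell gene Cd3e was found in 40.5% of conventional DC-like cells. The part of these in the ratios was not tested.

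Mature DC-like cells (46, 63 and 47 cells) showed no common direction, with 4 of 23 members lower and 5 higher in the first comparison, against 16.7% and 25.1% of all genes, and a median of −0.19 (−0.34 to 0.35). In the second, 7 of 22 were lower and 5 higher, against 30% and 14.4%, with a median of −0.17. Oasl1 stood at 220, 49.4 and 158 CPM, the lowest log2 ratio of the first comparison at −2.16 (−2.74 to −1.59) and the highest of the second at 1.68 (1.06 to 2.31). Stat2, at 68.8, 32.1 and 91.2 CPM, came next at both ends, at −1.10 (−1.95 to −0.25) and 1.51 (0.70 to 2.32). Oasl2 at 2.17 (0.70 to 4.11) and Isg20 at 1.75 (0.25 to 3.72) were highest in the first comparison, and Samd9l at −2.24 (−4.59 to −0.58) and Irf7 at −1.82 (−4.18 to −0.11) lowest in the second. With TMM factors these counts became 5 lower and 4 higher, against 20.2% and 21.8%, and then 6 lower and 7 higher, against 22.3% and 20.3%. Called doublets made up 10.9%, 41.3% and 0% of mature DC-like cells, the 10 T cell markers summed to 1535, 4158 and 1632 CPM in them and the 7 stress genes to 2903, 2226 and 2431 CPM, and the part of these in the ratios was not tested. Without called doublets the medians were 0.016 and −0.32. Plasmacytoid DC-like cells (146, 90 and 88 cells), known as strong producers of type I interferon, had a median of −0.26 (−0.46 to 0.28) with 4 of 19 members lower and 2 higher, against 15.3% and 9.79%. Isg20 at −1.13 (−2.49 to 0.13) and Ifih1 at −1.07 (−2.03 to −0.16) were lowest, and the 2 higher members were Stat2, at 91.4, 143 and 115 CPM, at 0.65 (0.16 to 1.15) and Parp14 at 0.62 (−0.22 to 1.51). With the combination 8 of 19 were higher, against 11.2%, with a median of 0.44. Ifi27l2a was the highest there, at 178, 135 and 321 CPM and a log2 ratio of 1.25 (0.89 to 1.62), and Zbp1 followed at 61.0, 31.6 and 70.5 CPM and 1.16 (0.39 to 1.96). Stat2 at −0.31 (−0.78 to 0.14) and Bst2 at −0.11 (−0.22 to −0.0038) were lowest. In the mono-IL-10 library 55.5% of the plasmacytoid DC-like cells held fewer than 1000 UMIs. Called doublets were 23.3%, 26.7% and 1.14% of these cells, the 10 macrophage markers summed to 1753, 861 and 443 CPM in them and the stress genes to 2083, 1605 and 1418 CPM, and the part of these in the ratios was not tested. Without called doublets the medians were 0.15 and 0.30. ILC2-like cells (35, 117 and 32 cells) allowed 14 and 17 comparisons, with 2 lower and 2 higher in the first (17.4% and 18.7% of all genes), 8 higher in the second (11.6%), and medians of −0.25 and 0.55. Isg15 was highest in the first comparison, at 53.2, 152 and 268 CPM and a log2 ratio of 1.51 (0.53 to 2.69), followed by Isg20 at 1.44 (−0.61 to 4.59). Ifi27l2a, at 148, 79.3 and 160 CPM, was lowest in the first at −0.90 (−1.63 to −0.14), followed by Stat2 at −0.88 (−2.06 to 0.39), and highest in the second at 1.012 (0.33 to 1.68), followed by Parp14 at 0.96 (0.09 to 1.82). Bst2 at −0.21 (−0.87 to 0.42) and Trim30a at 0.04 (−0.96 to 0.96) were lowest in the second. The second median turned to −0.43 when cells were gated one by one on markers. The stress genes summed to 10197, 4372 and 3688 CPM in ILC2-like cells and the 10 T cell markers to 2152, 2648 and 3589 CPM, and their part in the ratios was not tested.

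B cell-like cells had the largest ratios of all classes in the first comparison. All 33 members lay below 0, against 66.4% of all genes, and 29 were lower by at least 1.5-fold, against 32.6%, with a median of −1.51 (−2.56 to −1.24). With TMM factors, which moved the median of all genes from −0.27 to 0.02, 30 members lay below 0, against 48.3% of all genes, and 26 were lower by that size, against 20.5%. The mono-IL-10 pool held 8368630 UMIs and the IL-10/2-Trikine pool 1710052, so sparse members passed the minimum of 20 UMIs mainly through the first. Examples are Oas3 with 49 and 1 UMIs and Oas2 with 79 and 2. Oas1a, with 53 and 4 UMIs, had an interval that includes 0. Rsad2 had 108 UMIs (12.9 CPM) in the mono-IL-10 library and 0 in the IL-10/2-Trikine library, at least 7.36-fold lower at a floor of 3 UMIs in the class, and Ifit3b had 62 and 0 UMIs, at least 4.22-fold lower. Herc6 stood at 88.3, 24.6 and 52.3 CPM, a log2 ratio of −1.85 (−2.33 to −1.40), and Ifi27l2a at 240, 101 and 143 CPM, a log2 ratio of −1.25 (−1.48 to −1.02). Bst2 and Ifi35 stayed near level, at −0.17 (−0.41 to 0.07) and −0.17 (−0.52 to 0.16). With the combination 13 of 21 members were higher, against 16.8%, with a median of 0.71, led by Dhx58 at 2.13 (0.89 to 3.57) and Rtp4 at 1.52 (0.56 to 2.57), with Ifih1 at −0.20 (−0.83 to 0.42) and Bst2 at 0.07 (−0.25 to 0.39) lowest. The class held 1591, 174 and 246 cells, and 630 of the mono-IL-10 cells but none of the IL-10/2-Trikine cells came from a shallow cluster with a median of 670 UMIs. Restricted to cells of at least 1000 UMIs, the medians were −1.49 and 0.67. Under all alternatives the first ran from −1.73 to −1.21 and the second from 0.41 to 0.74. Called doublets were 25.1%, 37.9% and 7.72% of these cells, and without them the medians were −1.33 and 0.56. The 10 macrophage markers summed to 2115, 436 and 1206 CPM in B cell-like cells, with Trem2 at 0 in the IL-10/2-Trikine and combination libraries. The stress genes summed to 2144, 1304 and 1458 CPM, so that both ran in the order of the members. The T cell gene Cd3e was found in 11.8% of the cells of the shallow cluster and 26.7% of the other B cell-like cells. The part of these in the ratios was not tested.

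KP1 tumor cell-like cells (801, 1001 and 968 cells) were present although CD45+ cells had been sorted, and how they passed the gate was not tested. Of 30 members 16 were lower by at least 1.5-fold in the first comparison, against 12.9% of all genes, with a median of −0.60. Dhx58, at 7.09, 1.10 and 2.69 CPM, was lowest at −2.69 (−3.81 to −1.68), followed by Oas1a at −1.70 (−3.00 to −0.47), and Cmpk2 at 0.31 (−0.13 to 0.78) and Eif2ak2 at 0.26 (0.04 to 0.49) were highest. Without called doublets the members summed to 352, 372 and 543 CPM, the median was 0.0056, and 4 of 25 were lower, against 10.3% of all genes. The second comparison had 9 of 30 higher and 1 lower, against 10.8% and 2.89%, with a median of 0.42, or 0.57 without called doublets. Isg15 stood at 48.6, 23.9 and 39.4 CPM in all of these cells, and Rsad2, at 15.0, 15.4 and 5.80 CPM, was the member lower in the second comparison, at −1.41 (−1.94 to −0.90), or −0.31 without called doublets. Mx1 at −0.09 (−0.98 to 0.78) was next, and Dhx58 at 1.29 (0.14 to 2.51) and Parp14, at 28.2, 15.1 and 29.2 CPM, at 0.95 (0.64 to 1.26) were highest. In the tumor cell-like cells called doublets the members stood at 1332, 896 and 1071 CPM. The cells not called doublets had medians of 1151, 8863 and 2881 UMIs. The part of called doublets in the direction of the first comparison was not tested. In all tumor cell-like cells the 10 macrophage markers summed to 628, 230 and 399 CPM and the 10 T cell markers to 442, 407 and 777 CPM, and their part was not tested.

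**Figure D5:**
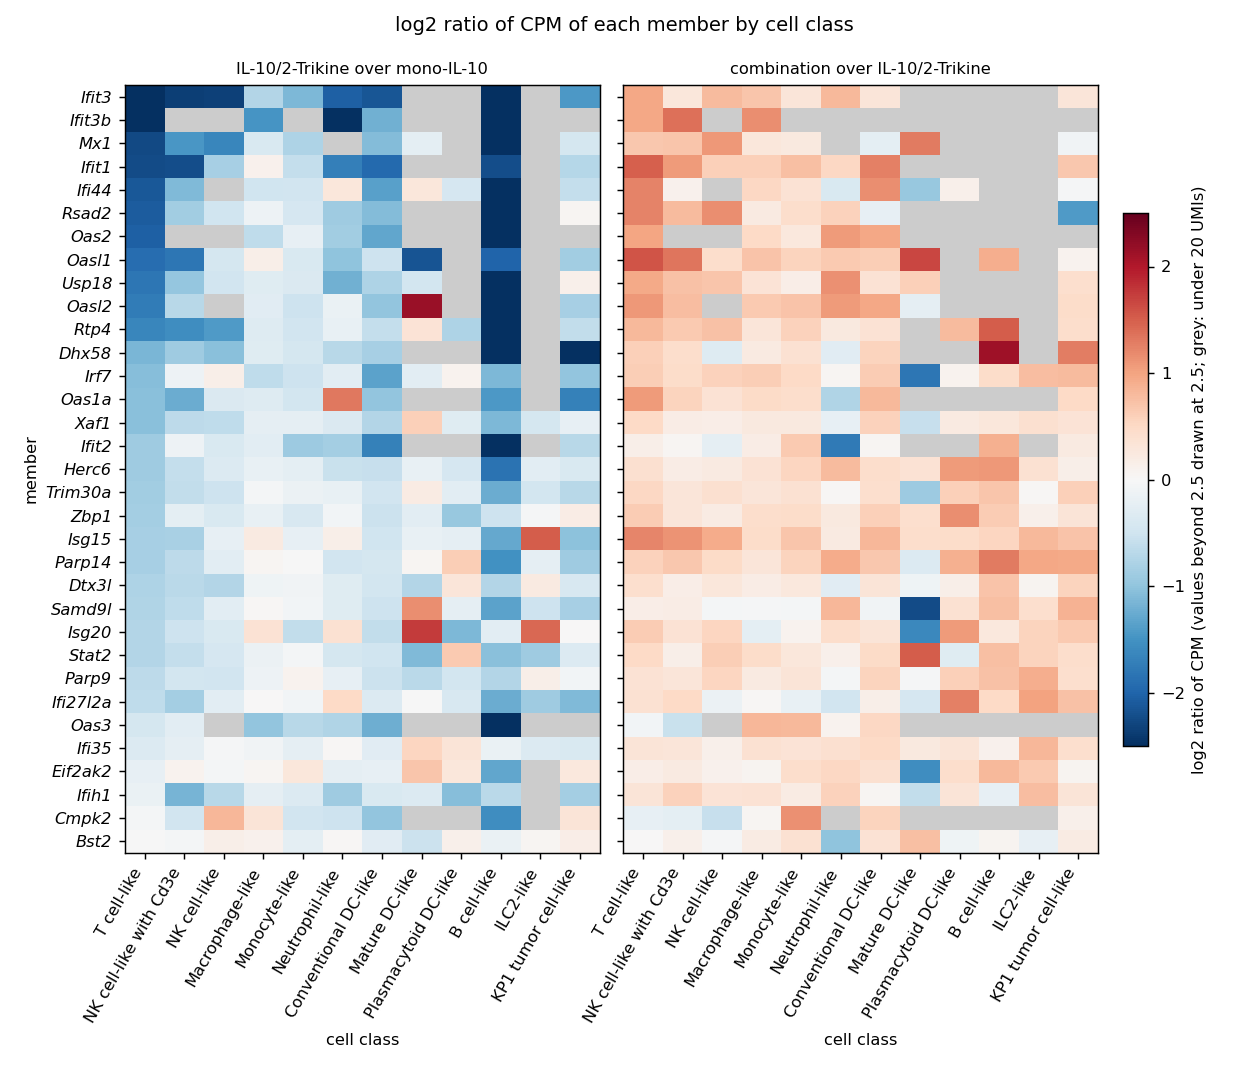
Log2 ratio of the CPM of each member (vertical axis, ordered by the first comparison in T cell-like cells) in 12 cell classes (horizontal axis), first comparison on the left and second on the right; blue is lower, red is higher, colors end at −2.5 and 2.5, and grey marks pairs with fewer than 20 UMIs. Ifit3b and Rsad2 in B cell-like cells, at 0 UMIs in the IL-10/2-Trikine library, are drawn at −2.5, and Bst2 stays between −0.54 and 0.17 across the left panel.

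Read along the genes, Ifit3 was lower by at least 1.5-fold in the first comparison in 9 of the 9 classes in which it could be compared, Ifit3b in 5 of 5 and Ifit1 in 8 of 9. Dhx58, which encodes LGP2, and Rtp4 were lower by that size in 7 classes each, of 9 and 11. Herc6 lay below 0 in all 12 classes, although past 1.5-fold in 3 of them. Bst2 and Ifi35 could be compared in 12 classes and were past 1.5-fold in none of them in the first comparison. In the second comparison Isg15 lay above 0 in 12 of 12 classes, although at −0.53 in ILC2-like cells gated one by one. It was higher by at least 1.5-fold in 7, as were Parp14 in 7 of 12, Oasl1 in 7 of 10 and Ifit1 in 7 of 8. Xaf1 reached that size in no class of 12. The genes with large ratios in the first comparison were therefore not in every case those of the second, as Ifit3 was higher by 1.5-fold in 4 of 8 classes. These counts over classes have no share of all genes beside them. RNA outside cells, which the classes of a library share, held Ifit3 at 22.8, 5.16 and 13.4 CPM and Ifit1 at 20.3, 6.44 and 16.9 CPM. Isg15 stood there at 149, 99.9 and 200 CPM and Oasl1 at 56.5, 9.67 and 60.8 CPM. By contrast, free Ifi27l2a was lower in the combination than in the IL-10/2-Trikine library. The part of free RNA in these counts was not tested.

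The interferon receptor and its signal chain, from a list chosen for their roles, are given beside the members. Ifnar1 stood at 103, 89.8 and 114 CPM in T cell-like cells, log2 ratios of −0.20 and 0.35. Ifnar2 stood at 72.6, 47.5 and 46.4 CPM, log2 ratios of −0.61 and −0.03, so that it was lower with the IL-10/2-Trikine in both of its libraries. The interferon-gamma receptor gene Ifngr1 was near level at 629, 610 and 698 CPM, whereas Ifngr2 was at 7.56, 2.44 and 2.22 CPM. Irf9, which encodes a transcription factor of the response, stood at 71.0, 44.2 and 65.8 CPM, log2 ratios of −0.69 and 0.58. Its mono-IL-10 and combination levels were close and the IL-10/2-Trikine level lower. In macrophage-like cells Irf9 was at 61.7, 59.7 and 72.1 CPM, with smaller steps.

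Of the whole lists in T cell-like cells, 3 of 6 receptors, 4 of 9 signal chain genes, 1 of 6 inhibitors and 6 of 14 sensors and adaptors were lower by at least 1.5-fold in the first comparison, against the 21.7% of all genes given above, and none was higher, against 9.4%. Of 18 genes known as targets of interferon-gamma 11 were lower and 1 higher, and in the second comparison 10 of the 18 were higher, against 8.87% of all genes. Their medians, −0.64 and 0.68, lay near those of the members, so that the direction was not particular to genes named for type I interferon. Ifng itself, the interferon-gamma gene, stood at 222, 183 and 268 CPM in T cell-like cells and at 248, 79.5 and 74.2 CPM in NK cell-like cells without Cd3e.

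Type I interferon transcripts were close to absent. Ifnb1, which encodes interferon beta, had 92, 98 and 92 UMIs over all kept cells of a library. In macrophage-like cells these were 78, 73 and 47 UMIs in 14, 2 and 14 cells, and 72 of the 73 UMIs of the IL-10/2-Trikine library lay in 1 cell. In monocyte-like cells 0, 1 and 36 UMIs were found, 35 of the last in 1 cell. No level of Ifnb1 can be compared between libraries on this base. Ifna2 had 0, 1 and 9 UMIs over all kept cells, and plasmacytoid DC-like cells, with 146, 90 and 88 cells, held no Ifnb1 UMI in any library.

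Of 6813 genes ranked by likeness to the mean level of the members over 35 combinations of class and library, the 10 most alike were Tet2 (Pearson r = 0.96), Rnf213 (0.94), Acap2 (0.93), Sat1 (0.93), Plekho2 (0.92), Ifi204 (0.92), Ptpn1 (0.92), Crtc3 (0.92), Rab32 (0.91) and Nfe2l2 (0.91). These values are a description, as the points share libraries, depth and the split between myeloid and lymphoid classes. In T cell-like cells Rnf213, a large ubiquitin ligase, had log2 ratios of −1.40 and 0.60 in the 2 comparisons, and Tet2, which oxidizes methylated cytosine, of −0.71 and 0.40. Rab32, by contrast, was near level in T cell-like cells at −0.15 and 0.19.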

How the data were processed

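Live CD45+ cells from KP1 tumors were measured by 10x Genomics 3′ single-cell RNA sequencing in 3 libraries, 1 per treatment. The authors deposited raw UMI counts per gene and barcode for each library, with empty droplets included. The file headers give Cell Ranger 8.0.0 and the labels mm10, whereas the methods name another Cell Ranger version and genome build, so the annotation behind a gene's count is uncertain. No column of per-sample values was left unassigned. Total depth was 158570946, 197176873 and 175794959 UMIs, so that precision was set by the cells of a class rather than by depth in the small classes.

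A barcode was kept as a cell at 200 or more detected genes and a mitochondrial share of 20% or less. Counts were scaled to a common total per cell and log-transformed, and 2000 variable genes without the members, 30 principal components and 20 neighbors were used for Leiden clustering at a resolution of 1 (leidenalg 0.10.2, scikit-learn 1.9.0, Python 3.11.15, numpy 2.4.6, scipy 1.17.1). T cell-like cells were clustered again with 1500 variable genes at a resolution of 0.8. Doublets were called with scrublet in scanpy 1.11.5, separately in each library, and were kept, except that clusters with over 50% called doublets were set aside. A cluster was named from at least 3 markers higher by 1.5-fold and found in at least 10% of its cells, and stayed unnamed where markers of another class outnumbered its own among its 10 leading genes. Leading genes had to be found in 25% of cells and were ranked with 20 CPM added. NK cell-like clusters with Cd3e in at least 50% of cells formed a class of their own.

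Raw UMIs were summed per class and library and divided by the class total to give CPM. A log2 ratio was taken for genes with at least 20 UMIs over the pair, with an exact conditional binomial 95% interval; levels have exact Poisson intervals, shares Clopper-Pearson intervals, and medians order-statistic intervals. A fold of 1.5 was the size rule, and no test was made with 1 library per group. For shares of cells, each cell was thinned to 1000 UMIs. The ratios, intervals and size rule were tried on simulated data for the first comparison in T cell-like cells only. There, 192 of 15197 genes were changed by 2-fold. Of the changed genes 95.8% were recovered, and 4.3% of the unchanged genes passed 1.5-fold. The interval held the true value for 95.4% of genes. This does not speak for the smaller classes.

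The members, the pathway lists and the markers were chosen with earlier results of these data known. The stress genes, the thresholds for leading genes, set-aside clusters and the NK split, the T cell resolution, the restriction to cells of at least 1000 UMIs and the list without members at or below their share of tumor cell-like cells were chosen after seeing the data. One gene of the pathway lists is not reported here. All members are named. Full values in T cell-like cells went to the 5 lowest and 5 highest log2 ratios of each comparison, and to the 2 lowest and 2 highest in other classes with at least 10 passing members; in T cell subsets, and for some members of other classes, these are log2 ratios with intervals only. Values of other members were added to describe roles and classes, and these were chosen after their values were seen. Alternatives included 500 detected genes, a resolution of 2, a marker gate per cell, doublets removed, edgeR 4.0.16 TMM factors (R 4.3.3), median-of-ratios factors, 50 UMIs or a pseudocount of 1 UMI, members allowed among the variable genes, cells without an Mki67 UMI, subtraction of free RNA (barcodes of 1 to 100 UMIs) at 10% of a class, and equal weights for T cell subsets.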

Additional observations from a re-analysis of the deposited data

Results flagged for a closer look

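Several members lay past 1.5-fold, with counting intervals that exclude 0, in opposite directions in different classes. The differences between classes were not tested, each rests on 1 library per group, and the classes that ran against the others were mostly small. In the comparison of IL-10/2-Trikine with mono-IL-10, Isg15 had a log2 ratio of 1.51 in ILC2-like cells, against −0.83 in T cell-like cells, −0.81 in NK cell-like cells with Cd3e, −1.28 in B cell-like cells and −1.02 in KP1 tumor cell-like cells. Oas1a stood at 1.32 in neutrophil-like cells, against −1.04 in T cell-like, −1.24 in NK cell-like with Cd3e, −0.99 in conventional DC-like and −1.70 in tumor cell-like cells. Oasl2 stood at 2.17 in mature DC-like cells, against −1.75 in T cell-like, −0.99 in conventional DC-like, −3.08 in B cell-like and −0.83 in tumor cell-like cells. Of these, the T cell-like value is of a member found in no larger share of T cell-like than of tumor cell-like cells. The tumor cell-like value turned to 0.12 under the marker gate. Without called doublets the tumor cell-like median of this comparison was 0.0056, Isg15 stood there at −0.36 and Oasl2 at −0.23, and Oas1a had too few UMIs to be compared. Isg20, an exonuclease gene, stood at 1.75 in mature DC-like cells, against −0.74 in T cell-like, −0.62 in monocyte-like and −0.61 in conventional DC-like cells. Stat2 stood at 0.65 in plasmacytoid DC-like cells, against −0.72 in T cell-like, −0.59 in NK cell-like with Cd3e, −1.10 in mature DC-like and −1.04 in B cell-like cells.

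In the comparison of the combination with IL-10/2-Trikine, mature DC-like cells, of which 63 and 47 were compared, ran against other classes for 5 members. With IL-10/2-Trikine 41.3% of these cells were called doublets, against 0% with the combination. The 10 T cell markers summed to 4158 and 1632 CPM there, and their part was not tested. Irf7 had a log2 ratio of −1.82 there, against 0.61 in T cell-like, 0.62 in macrophage-like, 0.64 in conventional DC-like and 0.80 in tumor cell-like cells. Isg20 stood at −1.61 there, against 0.63 in T cell-like and 0.65 in tumor cell-like cells. Trim30a stood at −0.90, against 0.60 in plasmacytoid DC-like, 0.69 in B cell-like and 0.59 in tumor cell-like cells. Eif2ak2 stood at −1.55, against 0.81 in B cell-like cells. Samd9l stood at −2.24, against 0.83 in neutrophil-like, 0.75 in B cell-like and 0.87 in tumor cell-like cells, although the B cell-like value turned to −0.42 without called doublets. Elsewhere, Ifit2 stood at 0.66 in monocyte-like and −1.76 in neutrophil-like cells. Rsad2 stood at −1.41 in tumor cell-like cells, against 1.23 in T cell-like, 0.80 in NK cell-like with Cd3e and 1.16 in the other NK cell-like cells. It too was found in no larger share of T cell-like than of tumor cell-like cells. Without called doublets the tumor cell-like values of this comparison kept their direction, at −0.31 for Rsad2 and between 1.10 and 3.18 for Irf7, Isg20, Trim30a and Samd9l.

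Cells of the clusters that could not be named entered no comparison. The members summed there to 1659 CPM in the mono-IL-10 library, 1690 CPM in the IL-10/2-Trikine library and 1705 CPM in the combination library.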

How the results depend on the processing

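No paired analysis was possible because each group was 1 library, and leaving out a library left no comparison. Small classes, sparse members and the lack of replicates limit every value, and depth cannot make up for the last. Of the class medians under the alternatives, 261 stayed within their interval, 27 left it, and 2 whose interval excluded 0 turned. Within intervals that included 0, another 6 changed sign, from −0.17 to 0.27 (gate) and 0.019 (TMM) in mature DC-like cells (second comparison), and in the first from −0.19 to 0.016 (mature DC-like, no doublets), −0.26 to 0.15 (plasmacytoid DC-like, no doublets) and −0.25 to 0.071 (gate) and 0.057 (no Mki67 UMI) in ILC2-like cells. Under the marker gate per cell the first-comparison medians moved to −0.58 (NK cell-like), −0.39 (conventional DC-like), −0.35 (mature DC-like) and −0.13 (tumor cell-like), and those of the second to 0.57 (monocyte-like), 0.28 (conventional DC-like), 0.41 (B cell-like) and −0.43 (ILC2-like), the last a turn. With called doublets removed, conventional DC-like cells gave −0.36 and 0.15, and tumor cell-like cells 0.0056, a turn, and 0.57. TMM factors gave −0.74 (T cell-like) and −1.21 (B cell-like), median-of-ratios factors −0.68 (T cell-like) and −0.45 (NK cell-like with Cd3e), and a pseudocount of 1 UMI without a minimum −0.59 and 0.83 (ILC2-like). Without cells holding an Mki67 UMI the medians were −0.43 and 0.29 (T cell-like), −0.25 and 0.13 (NK cell-like with Cd3e) and −0.46 and 0.23 (conventional DC-like), and in the second comparison 0.46 (B cell-like), 0.29 (ILC2-like) and 0.67 (tumor cell-like). Subtracted free RNA gave −0.30 in tumor cell-like cells, and equal subset weights −0.58 in T cell-like cells. Thinned to 500 UMIs, T cell-like cells with at least 3 member UMIs were 8.54%, 4.05% and 6.64%, in the order found at 1000 UMIs, an order that the unthinned shares did not keep. With cells of at least 1000 UMIs all 24 medians stayed within their interval and moved by at most 0.085. Conventional DC-like cells gave no value with members among the variable genes, as their cluster was then unnamed. Single members turned as follows. At a resolution of 2, Herc6 was at −0.10 in neutrophil-like cells (second comparison) and Ifih1 at 0.49 in B cell-like cells (first). Under the gate, the first comparison gave Dtx3l 0.052 in mature DC-like and Oasl2 0.12 in tumor cell-like cells, and the second Oasl1 −0.51 in mature DC-like, Isg15 −0.53 and Parp14 −0.081 in ILC2-like and Ifi27l2a −0.18 in tumor cell-like cells. With doublets removed, Ifih1 was at 0.016 in B cell-like and Irf7 at 1.32 in tumor cell-like cells (first), and Oas2 at −0.00704 in conventional DC-like and Stat2 at −0.041 and Samd9l at −0.42 in B cell-like cells (second). Without cells holding an Mki67 UMI, Ifi27l2a was at 0.039 in T cell-like and 0.39 in ILC2-like cells (first) and Mx1 at −0.18 in NK cell-like cells with Cd3e (second). The cause was not tested for any of these.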
